A study of Homo sapiens with 12 samples.

Results

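The aryl hydrocarbon receptor gene AHR and 9 genes of xenobiotic metabolism were followed across 4 human breast epithelial cell lines: CYP1A1, CYP1B1, TIPARP, NQO1, ALDH3A1, AKR1C1, AKR1C2, AKR1C3 and UGT1A6. They were taken by gene symbol from a table of 59427 symbols, and all 10 were found. The lines form the MCF10 progression series. Its starting point, MCF10A, is immortalised but not tumorigenic, and HRAS G12V, an activated allele, turned it into MCF10AT1. MCF10DCIS stands for ductal carcinoma in situ, and MCF10CA1a is the metastatic line. Every line was kept in DMEM:F12 supplemented with hydrocortisone, cholera toxin, EGF, insulin and horse serum. The labels name no treatment, so no AHR ligand or vehicle was compared. They give 3 libraries of total RNA per line, 12 in all. Each stage is 1 line, so an effect of HRAS or of stage cannot be told apart from any other difference between lines.

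AHR is a transcription factor that waits in the cytoplasm in a complex with HSP90 and the co-chaperone p23. Planar aromatic ligands such as dioxins, combustion products and tryptophan derivatives release it to the nucleus, where it pairs with ARNT and binds xenobiotic response elements. Its classical targets oxidise the ligand (CYP1A1, CYP1B1), limit the receptor (TIPARP, AHRR) or detoxify what is formed (NQO1, ALDH3A1, UGT1A6). NQO1 and the AKR1C genes also carry antioxidant response elements read by the transcription factor NRF2. In breast epithelium CYP1B1 is known for turning oestradiol into catechol oestrogens, and AKR1C enzymes for reducing progesterone, androgens and prostaglandins.

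The values are the authors' means of TPM per line. They come without an SD or a depth, so whether a difference exceeds the scatter of replicate libraries is unknown and no p-value is given. Differences between lines are on the log2(TPM + 1) scale, the line named first less the line named after it, which understates the change of low genes. A gene is counted as higher or lower when this difference is at least 1, a 2-fold difference of TPM + 1. The background is the 13108 genes with at least 1 TPM in at least 1 line, which includes all 10 genes studied. Structural and small RNAs held 66.0% of the TPM in MCF10DCIS, against 57.6% in MCF10A. A second scale, rescaled TPM, therefore leaves out these RNAs, ribosomal protein and mitochondrially encoded genes. Background genes had a median difference from MCF10A of -0.07 for MCF10AT1, -0.38 for MCF10DCIS and -0.07 for MCF10CA1a, and of 0.04, -0.09 and 0.05 with rescaled TPM. HRAS, which checks the labels, was 50.8 TPM in MCF10A, 126 TPM in MCF10AT1, 276 TPM in MCF10DCIS and 312 TPM in MCF10CA1a. All 6 general epithelial markers reached 1 TPM in some line and 5 in every line, but their sum was 2997.5 to 3282.1 TPM in the derived lines, against 5480.3 TPM in MCF10A. CDH1, the epithelial cadherin gene, was 21.3 TPM in MCF10AT1, 42.3 TPM in MCF10DCIS and 51.9 TPM in MCF10CA1a, against 149 TPM in MCF10A. In MCF10CA1a KRT7, KRT8 and KRT19 were also below MCF10A, at 1443.9, 661 and 0.616 TPM against 3531.0, 942 and 5.76 TPM. EPCAM and KRT18 were above MCF10A in that line, at 148 and 977 TPM against 86.1 and 766 TPM. All 5 basal markers reached 1 TPM in some line and 4 in every line, and the basal keratin genes KRT5 and KRT14 were 126 and 4.75 TPM in MCF10CA1a, against 768 and 57.8 TPM in MCF10A. The part of these marker levels in the results was not tested. Of 9 hepatocyte markers 1 reached 1 TPM, SERPINA1, while ALB stayed at or below 0.0357 TPM. Of the 6 fibroblast, 6 leukocyte and 4 endothelial markers 1, 2 and 1 did.

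Most of the genes other than AHR were higher in at least 1 derived line than in MCF10A, and AHR itself was higher in none. Whether any of these genes depends on AHR in these lines was not tested. Against MCF10A, 5 of the 10 genes were higher in MCF10AT1, 3 in MCF10DCIS and 6 in MCF10CA1a, and 0 were lower in any of these comparisons. The shares of background genes counted as higher were 3.39%, 3.56% and 5.97% in the same order, and those counted as lower 5.87%, 14.8% and 7.14%. The median difference of the 10 genes was 1.03, 0.31 and 1.23. With rescaled TPM 6, 3 and 7 genes were higher, against 5.8%, 7.82% and 9.44% of the background genes on that scale. The 10 genes were chosen with earlier results of these data known. Nothing is therefore read from the gap to the background shares, here or between the derived lines. AKR1C1, AKR1C2 and AKR1C3, all among the 6 in MCF10CA1a, are neighbours that share transcript sequence, so they are not separate observations. In these bulk samples, more cells that express a gene and more RNA per cell cannot be told apart. The 3 comparisons share MCF10A. Together the 10 genes summed to 262 TPM in MCF10A, 508 TPM in MCF10AT1, 334 TPM in MCF10DCIS and 791 TPM in MCF10CA1a.

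**Figure D1:**
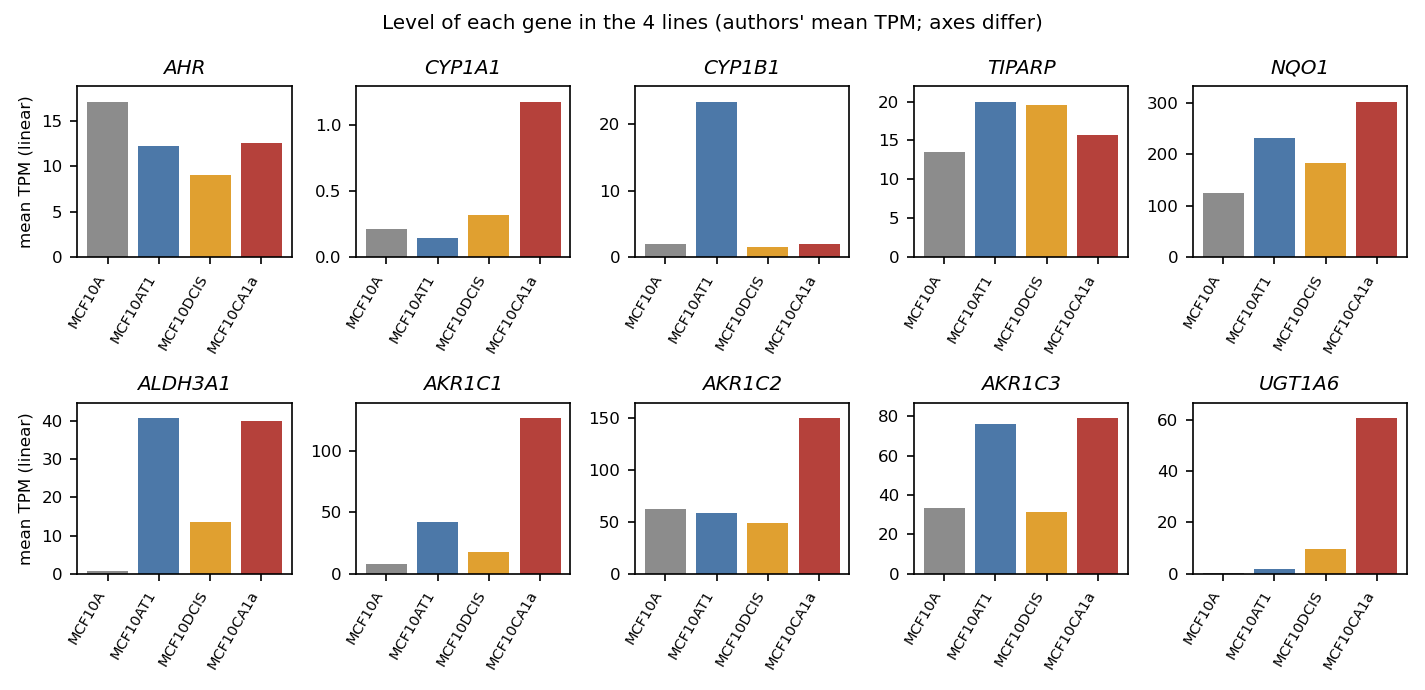
Mean TPM of each gene (vertical axes, linear from 0 and different in each panel) in the 4 lines (horizontal axes); bars are the authors' means and have no error. CYP1B1 stands out in MCF10AT1 at 23.4 TPM, UGT1A6 in MCF10CA1a at 60.7 TPM, and AHR is highest in MCF10A at 17.1 TPM.

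**Figure D2:**
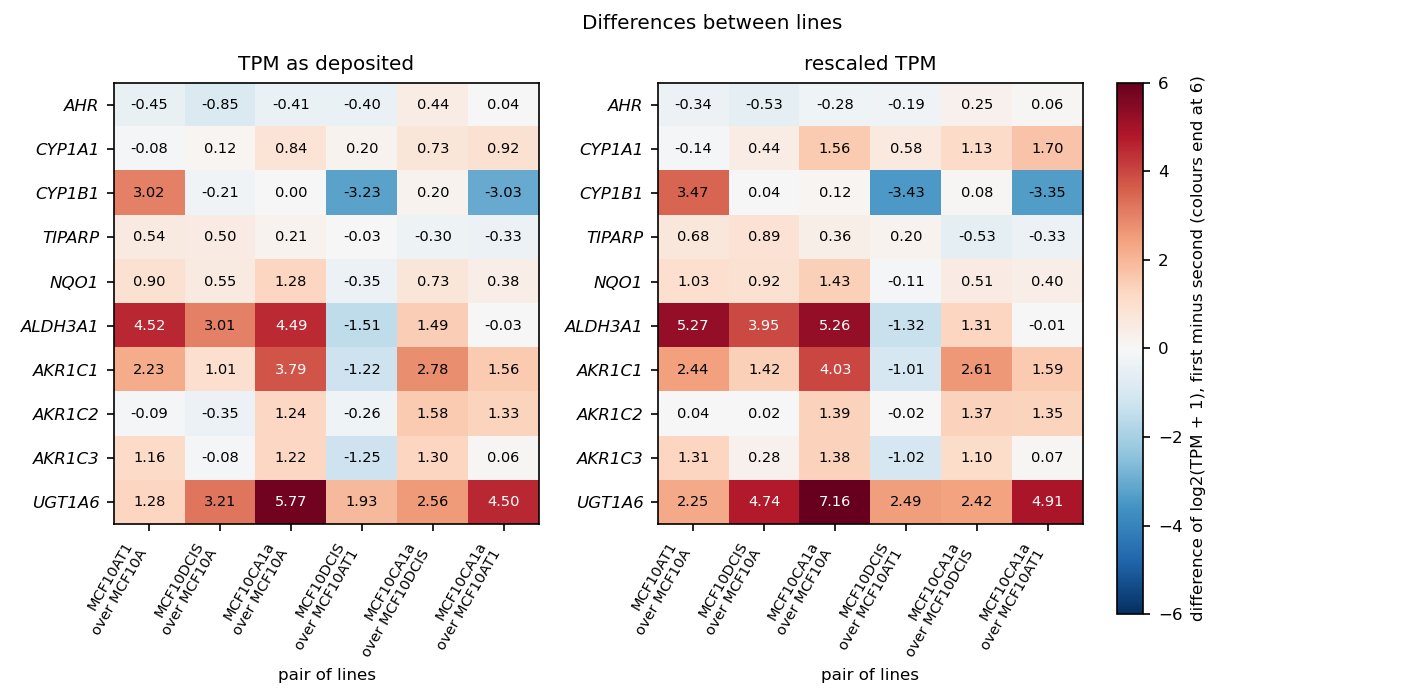
Differences of log2(TPM + 1), first-named line minus second, for the 10 genes (rows) and 6 pairs of lines (columns), with TPM as deposited (left) and rescaled (right); the colour scale ends at 6, so 7.16 for UGT1A6 has its end colour. ALDH3A1, AKR1C1 and UGT1A6 are above 1 in all 3 columns against MCF10A, and AHR is below 0 in each of them.

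AHR itself, the ligand-binding receptor, was 17.1 TPM in MCF10A, 12.2 TPM in MCF10AT1, 9.04 TPM in MCF10DCIS and 12.6 TPM in MCF10CA1a. It was lower than in MCF10A in each derived line, by less than the rule of size. The differences were -0.45, -0.85 and -0.41, or -0.34, -0.53 and -0.28 with rescaled TPM. AHR maps to chromosome 7, plus strand, bases 16916359 to 17346152 of GRCh38. The 5 background genes whose lowest coordinate lies within 1 Mb of that of AHR all had differences below 0 as well. Their medians were -0.60 for MCF10AT1, -1.04 for MCF10DCIS and -1.16 for MCF10CA1a. The part of this local level in the AHR values was not tested. Of the 75-base stretches in AHR coding transcripts, 30.3% also occur in AC019117.2, which was listed at 0 in all lines.

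Genes called measured here and in the lists that follow are those among the background genes. The measured partners of the receptor differed from MCF10A by less than the rule of size, apart from ARNT2. ARNT, the usual nuclear partner, was 5.07, 5.32, 5.47 and 3.26 TPM in stage order (MCF10A to MCF10CA1a). The chaperone gene HSP90AB1 was 436, 443, 409 and 491 TPM. Of 6 measured genes among 7 chaperones, partners and repressor genes, 0 passed the rule of size in MCF10AT1 or MCF10DCIS. In MCF10CA1a 1 did, ARNT2, an ARNT paralog best known from neurons, at 2.44 TPM in MCF10CA1a against 0.107 TPM in MCF10A; it reached 1 TPM in that line alone. AHRR, the repressor that AHR itself induces, did not reach 1 TPM in any line. Its highest value was 0.510 TPM in MCF10AT1, against 0.0880 in MCF10A, 0.0579 in MCF10DCIS and 0.116 in MCF10CA1a.

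CYP1A1, the target most often used as a readout of AHR activity, was near the bottom of the background genes. It was 0.214 TPM in MCF10A, 0.149 TPM in MCF10AT1, 0.318 TPM in MCF10DCIS and 1.18 TPM in MCF10CA1a. These levels stood at percentiles 2.4, 1.8, 3.9 and 10.8 of the background genes of each line. CYP1A1 was among the background genes through MCF10CA1a alone. In that line the TPM ratio to MCF10A was 5.50, yet the difference of 0.84 was under the rule of size. It became 1.56 with rescaled TPM and 2.03 with a pseudocount of 0.1, so the call at this low level rests on the scale. CYP1A2, its liver-enriched neighbour, was listed at 0 in 3 lines and at 0.00164 TPM in MCF10CA1a. CYP1A1 maps to chromosome 15, minus strand, bases 74719542 to 74725610 of GRCh38.

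The 250 bases before the CYP1A1 start are shown because AHR and ARNT act through the core letters GCGTG, and capitals mark every match of that core on either strand (RefSeq, GRCh38.p14, chr15:74725529-74725778, minus strand).
CYP1A1: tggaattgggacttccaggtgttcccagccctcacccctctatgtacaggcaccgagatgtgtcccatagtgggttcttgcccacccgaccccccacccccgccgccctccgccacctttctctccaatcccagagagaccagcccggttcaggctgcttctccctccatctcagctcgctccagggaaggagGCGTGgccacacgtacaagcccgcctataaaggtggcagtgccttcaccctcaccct
The window held 1 core, 57 to 53 bases before the start. Of 35116 promoter windows of this length, 32.2% held the core, so a match is common. Promoters were found for 8 of the 10 genes, not for CYP1B1 and ALDH3A1, with 12 windows in all, as some have several starts. The core was in 3 of the 12 windows, 1 each of CYP1A1, TIPARP and UGT1A6. Bases further upstream were not searched, so a window without a match does not show that the gene lacks the element.

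CYP1B1, the other inducible P450 of the family, took a different course and was high in MCF10AT1. It was 2.00 TPM in MCF10A, 23.4 TPM in MCF10AT1, 1.60 TPM in MCF10DCIS and 1.99 TPM in MCF10CA1a. The other lines lay within a TPM ratio of 1.25 of each other. MCF10AT1 was 11.7 times MCF10A in TPM, a difference of 3.02 that ranked 23 of 13108 from the top. MCF10DCIS was lower than MCF10AT1 by 3.23 on the log2 scale, and MCF10CA1a lower by 3.03. MCF10DCIS was at -0.21 over MCF10A, and at 0.04 with rescaled TPM. The 19 background genes within 1 Mb had a median difference of 0.04 in MCF10AT1 over MCF10A and ranged between -0.33 and 0.57. CYP1B1 maps to chromosome 2, minus strand, bases 38066973 to 38109902 of GRCh38.

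The genes whose pattern over the 4 lines lay nearest to that of CYP1B1 were MAOA, FAM167A and FBN1. Their Euclidean distances on centred log2(TPM + 1) were 0.29, 0.32 and 0.40, and 7 of the 4032 genes with a range of at least 1 came within 0.5. MAOA, which oxidises amines, was 0.161 TPM in MCF10A, 11.1 TPM in MCF10AT1, 0.0683 TPM in MCF10DCIS and 0.156 TPM in MCF10CA1a. FBN1, a microfibril glycoprotein of the matrix, was 0.784, 10.8, 0.170 and 0.217 TPM in the same order. Of the 10 genes studied, CYP1B1 was the one with its peak confined to MCF10AT1 by the rule of size.

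TIPARP, an ADP-ribosyltransferase that AHR induces and that then inactivates the receptor, varied little. It was 13.5 TPM in MCF10A, 20.0 TPM in MCF10AT1, 19.5 TPM in MCF10DCIS and 15.7 TPM in MCF10CA1a. The differences from MCF10A were 0.54, 0.50 and 0.21, none past the rule of size, and 0.68, 0.89 and 0.36 with rescaled TPM. Its range over the lines, 0.54, was the smallest of the 10 genes with TPM as deposited. The first of its 3 annotated starts had 2 cores GCGTG in the 250 bases before it. TIPARP maps to chromosome 3, plus strand, bases 156673235 to 156706770 of GRCh38.

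NQO1, which reduces quinones in a single step of electron pairs and so avoids reactive semiquinones, was the most abundant of the 10 genes in every line. It was 124 TPM in MCF10A, 232 TPM in MCF10AT1, 182 TPM in MCF10DCIS and 302 TPM in MCF10CA1a, which put it at percentile 96.1 or above throughout. All derived lines lay above MCF10A. The TPM ratios to MCF10A were 1.87, 1.46 and 2.44, and the differences 0.90, 0.55 and 1.28, so that MCF10CA1a passed the rule of size. With rescaled TPM MCF10AT1 passed too, at 1.03, and MCF10DCIS was at 0.92. NQO1 maps to chromosome 16, minus strand, bases 69706996 to 69726951 of GRCh38. The 35 background genes within 1 Mb had medians of -0.41, -0.84 and -0.67, below 0 where NQO1 was above 0. NQO2, its paralog, was 7.23, 8.65, 3.72 and 4 TPM in stage order.

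ALDH3A1, an aldehyde dehydrogenase abundant in cornea and known as a dioxin-inducible enzyme, differed strongly between MCF10A and the lines derived from it. It was 0.818 TPM in MCF10A, 40.7 TPM in MCF10AT1, 13.6 TPM in MCF10DCIS and 40 TPM in MCF10CA1a. MCF10AT1 and MCF10CA1a had similar means, with a difference of -0.03 between MCF10CA1a and MCF10AT1, and MCF10DCIS stood between them and MCF10A. The differences from MCF10A were 4.52, 3.01 and 4.49, which ranked 5, 32 and 16 of 13108 from the top. In TPM, MCF10AT1 was 49.8 times MCF10A. MCF10DCIS was lower than MCF10AT1 by 1.51 on the log2 scale.

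ALDH3A1 maps to chromosome 17, minus strand, bases 19737984 to 19748943 of GRCh38, next to its paralog ALDH3A2, which oxidises fatty aldehydes. ALDH3A2 was 39.6 TPM in MCF10A, 113 TPM in MCF10AT1, 80.2 TPM in MCF10DCIS and 125 TPM in MCF10CA1a, and its differences from MCF10A were 1.49, 1.00 and 1.63. Both genes were thus lowest in MCF10A, with MCF10DCIS next. The 14 background genes within 1 Mb, ALDH3A2 among them, had medians of 0.37, -0.09 and 0.40. Even the highest of them, at 1.49, 1.33 and 1.63, stayed below ALDH3A1. Of these 14 genes 2, 2 and 6 were higher by the rule of size and 0 lower. The background shares counted as higher were 3.39%, 3.56% and 5.97%. GRAP, among the 6, reached 1 TPM in MCF10CA1a alone. The part of this local level in the ALDH3A1 values was not tested. The genes nearest in pattern were COL12A1, PTPRS and INPP5D at distances of 1.04, 1.06 and 1.32, and 0 genes came within 0.5.

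**Figure D3:**
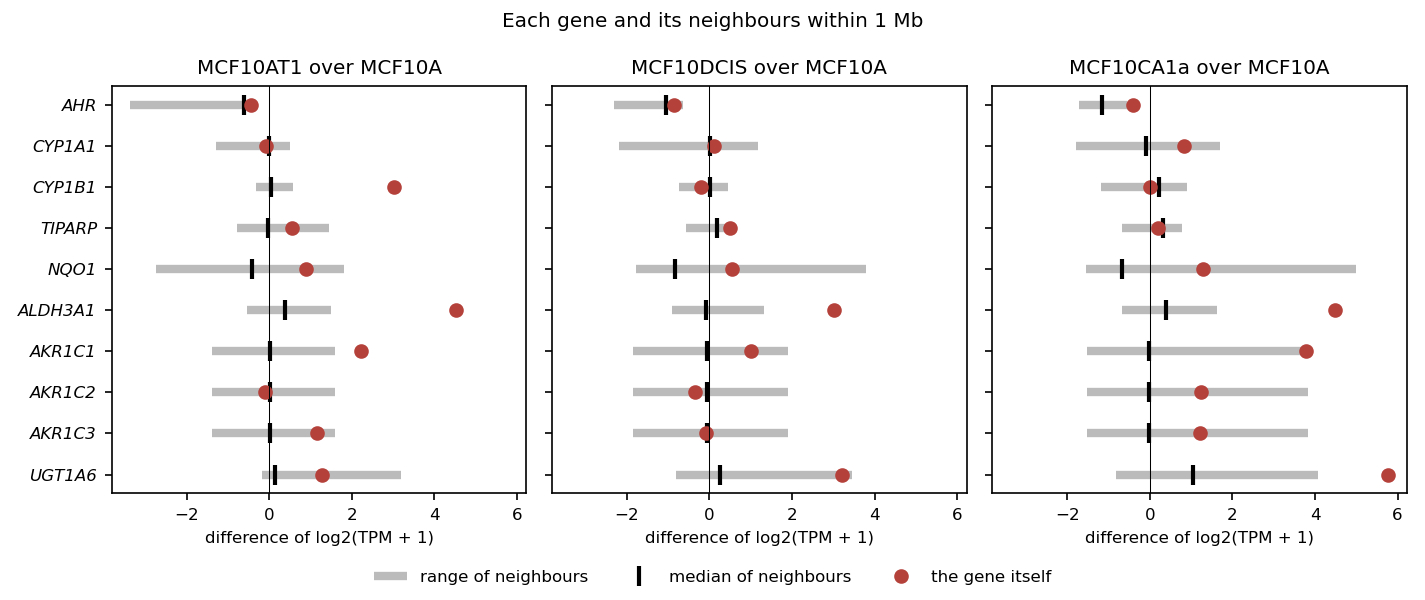
Difference of log2(TPM + 1) from MCF10A (horizontal axes) for each gene and its neighbours, in MCF10AT1, MCF10DCIS and MCF10CA1a. Red points are the genes. Grey bars (range) and black ticks (median) are the background genes within 1 Mb, by lowest coordinates. ALDH3A1 at 4.52, 3.01 and 4.49 lies outside the range of its neighbours in every panel, as does CYP1B1 at 3.02 in MCF10AT1.

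AKR1C1, AKR1C2 and AKR1C3 are neighbours on chromosome 10 and encode aldo-keto reductases of ketosteroids, prostaglandins and aromatic dihydrodiols. AKR1C1, best known for inactivating progesterone, lies from 4963253 to 4983283 on the plus strand. AKR1C2, which reduces dihydrotestosterone, lies from 4987400 to 5018031 on the minus strand. AKR1C3, which forms testosterone and acts on prostaglandins, lies from 5035354 to 5107686 on the plus strand (all GRCh38).

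The promoters of AKR1C1 and AKR1C2 are shown because the genes share nearly all of these letters and yet differed in pattern. They are the 250 bases before each RefSeq start (GRCh38.p14, chr10:4963165-4963414, plus strand, and chr10:5003858-5004107, minus strand). The AKR1C2 window lies inside the span given above, which runs to base 5018031, so any start further upstream was not compared. Capitals mark the bases that are not identical or have no partner in the alignment.
AKR1C1: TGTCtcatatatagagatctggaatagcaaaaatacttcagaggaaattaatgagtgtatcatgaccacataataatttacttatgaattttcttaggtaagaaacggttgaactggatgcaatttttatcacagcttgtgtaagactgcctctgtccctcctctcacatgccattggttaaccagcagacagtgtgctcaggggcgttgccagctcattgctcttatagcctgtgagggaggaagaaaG
AKR1C2: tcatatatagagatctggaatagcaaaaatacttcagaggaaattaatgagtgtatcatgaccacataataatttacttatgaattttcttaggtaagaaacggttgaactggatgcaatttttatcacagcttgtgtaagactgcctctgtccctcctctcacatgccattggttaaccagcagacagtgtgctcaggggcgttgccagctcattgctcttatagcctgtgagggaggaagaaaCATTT
Of 246 aligned bases 245 were identical. The windows before the 2 RefSeq starts of AKR1C3, which also lie inside its span, were 79.1% and 80.6% identical to that of AKR1C1 over the aligned bases. Neither GCGTG nor the antioxidant response element core TGACNNNGC occurred in any of these windows on either strand. Elements further than 250 bases before a start were not searched, so this does not show that the genes lack them.

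AKR1C1 was 8.29 TPM in MCF10A, 42.4 TPM in MCF10AT1, 17.6 TPM in MCF10DCIS and 127 TPM in MCF10CA1a. Each neighbouring pair in this order of levels was separated by at least 1.01 on the log2 scale, so every pair of lines passed the rule of size for AKR1C1. The differences from MCF10A were 2.23, 1.01 and 3.79. AKR1C2 was 62.8 TPM in MCF10A, 58.9 TPM in MCF10AT1, 49.2 TPM in MCF10DCIS and 150 TPM in MCF10CA1a. MCF10CA1a alone stood apart for this gene, with a difference of 1.24 from MCF10A, while MCF10AT1 and MCF10DCIS were at -0.09 and -0.35, and at 0.04 and 0.02 with rescaled TPM. AKR1C3 was 33.4 TPM in MCF10A, 76.1 TPM in MCF10AT1, 31.5 TPM in MCF10DCIS and 79.2 TPM in MCF10CA1a. MCF10AT1 and MCF10CA1a formed its high pair, 1.16 and 1.22 above MCF10A, and MCF10DCIS was at -0.08, or 0.28 with rescaled TPM.

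The makeup of the cluster differed between the lines. The AKR1C1 share of the summed TPM was 7.93% for MCF10A, 23.9% for MCF10AT1, 17.9% for MCF10DCIS and 35.7% for MCF10CA1a. AKR1C2 held 60.1%, 33.2%, 50% and 42.0% in the same order. The sum itself was 105, 177, 98.4 and 356 TPM. Its differences from MCF10A were 0.76 in MCF10AT1, -0.09 in MCF10DCIS and 1.76 in MCF10CA1a, so the excess of AKR1C1 in MCF10DCIS was not seen in the sum. Reads may pass between these genes in counting: 36.9% of the 75-base stretches of AKR1C2 coding transcripts, 20.8% of those of AKR1C1 and 6.17% of those of AKR1C3 occur in another gene. How the authors assigned such reads is not given in the sources used here, and the split between AKR1C1 and AKR1C2 is uncertain for that reason.

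**Figure D4:**
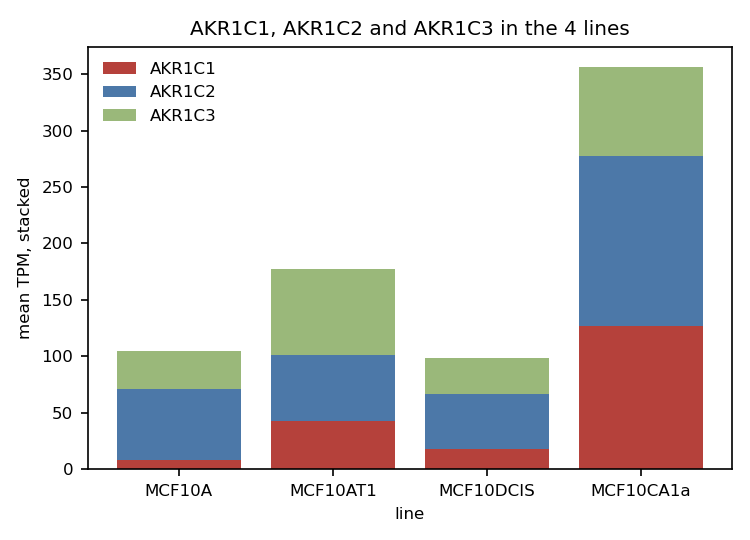
Mean TPM (vertical axis, linear) of AKR1C1, AKR1C2 and AKR1C3, stacked, in the 4 lines (horizontal axis); there is no error on the means. The stack reaches 356 TPM in MCF10CA1a, against 98.4 TPM in MCF10DCIS and 105 TPM in MCF10A, and AKR1C1 makes up 35.7% of the stack in MCF10CA1a, against 7.93% in MCF10A.

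AKR1C2 and AKR1C3, whose differences are given above, are left out of the neighbours of AKR1C1. The 14 other background genes within 1 Mb differed from MCF10A by medians of 0.01 for MCF10AT1, -0.05 for MCF10DCIS and -0.02 for MCF10CA1a. They spread widely around these medians, between -1.39 and 1.59 in MCF10AT1, -1.86 and 1.91 in MCF10DCIS, and -1.52 and 3.83 in MCF10CA1a. The highest in MCF10CA1a was CALML3, a calmodulin-like gene, against 3.79 for AKR1C1. The highest in the other comparisons was AKR1E2, above AKR1C1 in MCF10DCIS. Of these neighbours AKR1E2, a related reductase, was 0.0332 TPM in MCF10A, 2.11 TPM in MCF10AT1, 2.87 TPM in MCF10DCIS and 3.36 TPM in MCF10CA1a. AKR1C4, the liver member of the cluster, was listed at 0 in all lines. The genes nearest in pattern to AKR1C1 were ARHGAP23, NXN and ANTXR2 at distances of 0.59, 0.67 and 0.83. For AKR1C3 they were TEX10, TSC22D1 and MLLT3 at 0.11, 0.12 and 0.16, and for AKR1C2 RALGPS1, ASB9 and RASA4 at 0.14, 0.16 and 0.17. With 82 genes within 0.5 of AKR1C3 and 105 within 0.5 of AKR1C2, these patterns were common.

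UGT1A6, which conjugates planar phenols with glucuronic acid, was higher at each successive stage of the series. It was 0.127 TPM in MCF10A, 1.74 TPM in MCF10AT1, 9.46 TPM in MCF10DCIS and 60.7 TPM in MCF10CA1a. Each step passed the rule of size, with differences of 1.28, 1.93 and 2.56. Of the 10 genes it was the one with this monotonic order past the rule at every step. Its level was at percentile 92.3 of the background genes in MCF10CA1a, against 1.7 in MCF10A. The difference of 5.77 between MCF10CA1a and MCF10A ranked 6 of 13108 from the top, and it was 8.07 with a pseudocount of 0.1 and 7.16 with rescaled TPM.

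UGT1A6 belongs to the UGT1A locus, whose genes each have a first exon of their own and share the later exons, and maps to chromosome 2, plus strand, bases 233691607 to 233773300 of GRCh38. In its coding transcripts 60.3% of 75-base stretches occur in other genes, with 55.2% in UGT1A1. The table gave 93.3%, 86.8%, 89.6% and 89.6% of the summed UGT1A TPM to UGT1A6 in stage order. The sum over the 9 UGT1A symbols was 0.136, 2.00, 10.6 and 67.7 TPM, with differences from MCF10A of 1.40, 3.35 and 5.92. UGT1A1, which conjugates bilirubin, was 0.00257, 0.0289, 0.209 and 1.40 TPM, so it followed the same order at a far lower level. Which first exon was used cannot be read from these means. Leaving out UGT1A symbols, 9 background genes within 1 Mb had medians of 0.26, -0.08 and 0.79. The highest of them, the lipid phosphatase gene INPP5D, was at 3.18, 3.45 and 4.07, above UGT1A6 at 1.28 in MCF10AT1 and 3.21 in MCF10DCIS.

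The windows before both annotated starts of UGT1A6 are shown because they held the motifs searched (RefSeq, GRCh38.p14, chr2:233691452-233691701 and chr2:233692640-233692889, plus strand). Capitals mark GCGTG in the first and TGACNNNGC in the second.
UGT1A6, first start: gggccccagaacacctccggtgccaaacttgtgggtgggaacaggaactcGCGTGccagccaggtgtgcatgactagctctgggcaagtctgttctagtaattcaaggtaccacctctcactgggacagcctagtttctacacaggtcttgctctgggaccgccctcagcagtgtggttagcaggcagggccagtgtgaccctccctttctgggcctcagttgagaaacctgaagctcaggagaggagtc
UGT1A6, second start: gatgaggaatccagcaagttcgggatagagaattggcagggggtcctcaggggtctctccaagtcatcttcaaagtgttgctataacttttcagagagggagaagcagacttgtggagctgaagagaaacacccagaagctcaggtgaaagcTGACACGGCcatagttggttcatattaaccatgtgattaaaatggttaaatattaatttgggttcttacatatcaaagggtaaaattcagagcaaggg
The core in the first window was part of the longer motif TNGCGTG, which 4.52% of all windows and 1 of the 12 windows of these genes held. TGACNNNGC was in 10.9% of all windows and in 1 of the 12. The matches describe these letters and are not binding sites measured here.

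The genes nearest in pattern to UGT1A6 were IL1A, IL1B and HAS3 at distances of 0.28, 0.84 and 1.00, with 1 of 4032 genes within 0.5. IL1A, an alarmin cytokine, was 0.813 TPM in MCF10A, 3.12 TPM in MCF10AT1, 14.6 TPM in MCF10DCIS and 75.4 TPM in MCF10CA1a. HAS3, a hyaluronan synthase, was 0.248, 2.52, 16.4 and 38.7 TPM.

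Between the derived lines, MCF10DCIS was lower than MCF10AT1 for several of these genes. In MCF10DCIS over MCF10AT1, 1 gene was higher (UGT1A6) and 4 were lower (CYP1B1, ALDH3A1, AKR1C1, AKR1C3), against 3.23% and 7.51% of the background genes. AKR1C1 and AKR1C3 were at -1.22 and -1.25 there and at -0.87 and -0.89 with median-of-ratios scaling, under the rule of size. In MCF10CA1a over MCF10DCIS, 5 genes were higher (ALDH3A1, AKR1C1, AKR1C2, AKR1C3, UGT1A6) and 0 lower, against 6.03% and 1.35%. AKR1C3 was at 1.30, and at 0.94 with median-of-ratios scaling. With rescaled TPM CYP1A1 was added, at 1.13, against 6.01% of the background genes. In MCF10CA1a over MCF10AT1, AKR1C1, AKR1C2 and UGT1A6 were higher and CYP1B1 lower, against 6% and 3.97%. CYP1A1 was at 0.92 there, and at 1.70 with rescaled TPM. The background median of MCF10CA1a over MCF10DCIS was 0.30, and 0.14 with rescaled TPM.

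Other genes of AHR signalling and xenobiotic metabolism were read from 13 lists of 175 distinct genes, 113 of them among the background genes. Past the rule of size in at least 1 comparison with MCF10A were 53 of these 113, or 46.9%, against 26.1% of the background genes. The lists were put together with earlier results known, so nothing is read from that gap. Of 10 measured genes among 12 reported AHR targets, 3 were higher and 1 lower in MCF10AT1, 2 and 0 in MCF10DCIS, and 6 and 0 in MCF10CA1a. The background shares, which apply to every list, were 3.39% and 5.87%, 3.56% and 14.8%, and 5.97% and 7.14%. PTGS2 and ABCG2, among the 6, reached 1 TPM in MCF10CA1a alone, so the filter favoured their call there. The cytokine gene IL1B was 135 TPM in MCF10CA1a against 0.382 TPM in MCF10A, and SERPINB2, a protease inhibitor, 42.2 against 0.678 TPM. EREG, an EGF receptor ligand, was 2.67 TPM in MCF10AT1 against 8.44 TPM in MCF10A, and 25.6 TPM in MCF10DCIS.

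Of the 28 NRF2 pathway and antioxidant genes, 1 was higher and 1 lower in MCF10AT1, 2 and 4 in MCF10DCIS, and 6 and 2 in MCF10CA1a. The background shares were 3.39% and 5.87%, 3.56% and 14.8%, and 5.97% and 7.14%. With TPM as deposited the counts in MCF10AT1 and MCF10DCIS were thus near them. With rescaled TPM 3, 5 and 8 genes were higher, against 5.8%, 7.82% and 9.44% of the background genes. On that scale 1, 3 and 2 were lower. The list medians were 0.29, -0.13 and 0.54, against -0.07, -0.38 and -0.07 over the background genes. PIR, an iron-binding nuclear protein, was 5.25 TPM in MCF10A, 18.6 TPM in MCF10AT1, 25.3 TPM in MCF10DCIS and 48.7 TPM in MCF10CA1a. GPX2, a glutathione peroxidase, was 0.150, 0.300, 16.9 and 97.9 TPM. The efflux pump gene ABCC2 went the other way, at 15.3, 3.06, 0.539 and 0.533 TPM. GCLM, a subunit of the enzyme that starts glutathione synthesis, was 6.55 TPM in MCF10DCIS against 19.5 TPM in MCF10A. NFE2L2, which encodes NRF2, was 21.1, 31.6, 18.9 and 25.9 TPM in stage order, and its inhibitor KEAP1 19.8, 19.7, 12.5 and 10.3 TPM.

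**Figure D5:**
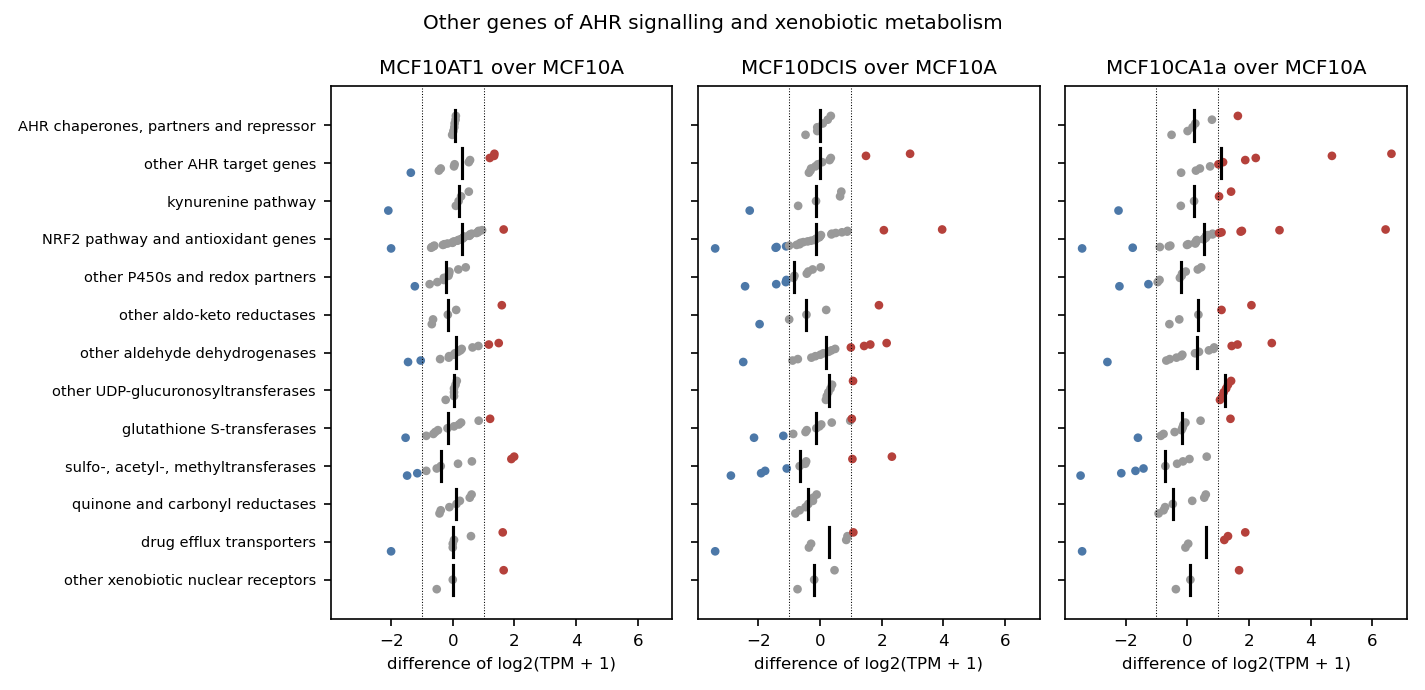
Difference of log2(TPM + 1) from MCF10A (horizontal axes) for the measured genes of 13 lists (rows), in MCF10AT1, MCF10DCIS and MCF10CA1a. Red points are higher and blue points lower by the rule of size (dotted lines at -1 and 1), grey points are neither, and black ticks are the list medians. The 28 NRF2 pathway genes have medians of 0.29, -0.13 and 0.54. Of the 6 other glucuronosyltransferase genes 5 entered by reaching 1 TPM in MCF10CA1a alone. With values at or below 0.00445 TPM in MCF10A, this all but fixes their place above 1 in MCF10CA1a.

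Among other P450 genes of families 1 to 4 and their redox partners, 10 of 27 reached the background, with medians of -0.21, -0.85 and -0.21, and 0 were higher in any comparison with MCF10A. In MCF10AT1 1 was lower, in MCF10DCIS 4 and in MCF10CA1a 2. CYP4X1 was 4.6 TPM in MCF10A, 2.34 TPM in MCF10AT1, 0.0420 TPM in MCF10DCIS and 0.222 TPM in MCF10CA1a, and CYP4B1 was 2.17, 1.25, 0.186 and 0.322 TPM. POR, the reductase that feeds electrons to microsomal P450s, was 15.1 TPM in MCF10DCIS against 33.5 TPM in MCF10A. That difference of -1.11 was -0.78 with rescaled TPM, under the rule of size. In MCF10CA1a the POR difference was -0.90. CYP3A4, the main P450 of liver, was at or below 0.00442 TPM.

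Among 14 measured aldehyde dehydrogenases other than ALDH3A1, 2 were higher and 2 lower in MCF10AT1, 4 and 1 in MCF10DCIS, and 3 and 1 in MCF10CA1a. ALDH1L1, 1 of those higher in MCF10DCIS, reached 1 TPM in that line alone, so the filter favoured its call. ALDH1A3, a retinoic acid synthesising enzyme used as a marker of mammary progenitors, was 69.1 TPM in MCF10A, 24.7 TPM in MCF10AT1, 188 TPM in MCF10DCIS and 466 TPM in MCF10CA1a. ALDH1L2, a mitochondrial folate enzyme, was 5.12, 1.97, 0.0915 and 0.0152 TPM. Of 5 measured aldo-keto reductases outside the AKR1C genes, 1 was higher and 0 lower in MCF10AT1, 1 and 1 in MCF10DCIS, and 2 and 0 in MCF10CA1a. AKR1B1, aldose reductase, was 228, 146, 58.1 and 152 TPM. Of 7 quinone and carbonyl reductases 0 passed the rule of size against MCF10A.

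Among other conjugating enzymes, genes passed the rule of size in both directions. The background shares were 3.39%, 3.56% and 5.97% higher and 5.87%, 14.8% and 7.14% lower. Nothing is read from the counts in lists this short. Of 18 other glucuronosyltransferases 6 were measured. UGT1A genes that share exons with UGT1A6 made up 5 of these, which entered by reaching 1 TPM in MCF10CA1a alone. Their MCF10A values were at or below 0.00445 TPM, so the filter all but fixes their higher call in MCF10CA1a. The other one, UGT8, which makes galactolipids, was 2.44, 1.93, 6.21 and 6.58 TPM in stage order. Of 11 measured glutathione S-transferases, 1 was higher and 1 lower in MCF10AT1, 1 and 2 in MCF10DCIS, and 1 and 1 in MCF10CA1a. The higher gene in MCF10AT1, GSTA4, reached 1 TPM in that line alone, so the filter favoured its call. GSTK1, a mitochondrial and peroxisomal enzyme, was 164 TPM in MCF10A, 56.1 TPM in MCF10AT1, 36.5 TPM in MCF10DCIS and 53.6 TPM in MCF10CA1a. Of 9 measured sulfo-, acetyl- and methyltransferases, 2, 2 and 0 were higher and 2, 4 and 4 lower. SULT1B1, 1 of those higher in MCF10AT1, reached 1 TPM in that line alone, so the filter favoured its call too. SULT1E1, which sulfates oestrogens, was 10.3, 11.6, 0.514 and 0.0230 TPM. NNMT, which methylates nicotinamide, was 82.2, 330, 171 and 17.9 TPM, highest in MCF10AT1.

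The remaining lists were short. Of 6 measured efflux transporters, 1, 1 and 3 were higher and 1 was lower in each comparison, the lower one being ABCC2. ABCG2, an efflux pump for many drugs, was 5.01 TPM in MCF10CA1a against 0.634 TPM in MCF10A. It reached 1 TPM in MCF10CA1a alone, so the filter favoured its higher call. Of 5 measured kynurenine pathway enzymes, which process tryptophan into AHR ligands, 0, 0 and 2 were higher and 1 was lower in each comparison. KMO was that lower gene, at 4.19, 0.219, 0.0648 and 0.108 TPM. It reached 1 TPM in MCF10A alone, so the filter favoured its lower calls. KYNU was 62.8 TPM in MCF10CA1a against 22.9 TPM in MCF10A. IDO1 and TDO2, which open the pathway, were at or below 0.0453 TPM. Of 3 measured xenobiotic nuclear receptors, RXRA was higher in MCF10AT1 and MCF10CA1a, at 31.0 and 31.7 TPM against 9.21 TPM in MCF10A. NR1I2, the pregnane X receptor, was at or below 0.00254 TPM.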

How the data were processed

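RNA of 4 lines was sequenced in 12 stranded total RNA libraries, per the labels' protocols. STAR, edgeR and hg38 are named in the submitters' processing notes, without versions; which quantifier, annotation and strand option were used is not given in the sources used here. For every gene the authors deposited 1 mean TPM in each line, per the file headers, and each column summed to 1000000. The 59427 symbols were used as given. With means only, no test, SD or interval was possible, and the depth behind each value is unknown. Differences were computed with a pseudocount of 1 in Python 3.11.15 with pandas 2.3.3. The rule of size was checked on simulated data. Alternatives were a pseudocount of 0.1, no filter, a filter of 5 TPM, rescaled TPM, median-of-ratios scaling, quantile normalization, a rule of size of 1.5 and locus sums. Members and lists were chosen with earlier results of these data known. All 10 members are given; from each list up to 2 genes per direction and comparison past the rule of size could be named, and others were chosen for their role after their values were seen (ARNT, HSP90AB1, AHRR, CYP1A2, CYP3A4, NQO2, AKR1C4, UGT1A1, NFE2L2, KEAP1, IDO1, TDO2, NR1I2, POR in MCF10DCIS, the neighbours CALML3 and INPP5D, and the markers CDH1, KRT5 and KRT14). Nearest patterns were the 3 genes with the smallest distance. Positions are from GENCODE release 29 on GRCh38, which hg38 denotes. Distances to neighbouring genes were taken between the lowest coordinates of the genes, whichever their strand.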

Additional observations from a re-analysis of the deposited data

How the results depend on the processing

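Counts of the 10 genes past the rule of size stayed within 1.5 times the reported ones with rescaled TPM, a filter of 5 TPM, no filter and a pseudocount of 0.1, in all 6 pairs. With a rule of size of 1.5 the counts were 3 instead of 5 in MCF10AT1 over MCF10A, 3 instead of 6 in MCF10CA1a over MCF10A, 3 instead of 5 in MCF10DCIS over MCF10AT1 and 3 instead of 5 in MCF10CA1a over MCF10DCIS, since fewer genes can pass a larger limit. In MCF10DCIS over MCF10AT1 the count was also 3 instead of 5 with median-of-ratios scaling and with quantile normalization, because AKR1C1 and AKR1C3 came under the limit; the cause was not tested. Of 264 single differences recomputed on another scale or as locus sums, 243 kept their side of the rule, 10 came under it, 10 passed it, and 1 reversed: AKR1C1 in MCF10DCIS over MCF10A was 1.01 alone and -0.09 as the sum of AKR1C1, AKR1C2 and AKR1C3. List genes past the rule against MCF10A numbered 53 (46.9%, against 26.1% of the background genes), and 29 with a rule of size of 1.5 (25.7%, against 10.3%). Medians of neighbours past the rule numbered 3 of 60, and 0 with no filter on low values and with a rule of 1.5; without UGT1A symbols, an alternative chosen after seeing the data, there were 2. Leaving out each replicate could not be run on means. No paired analysis was possible because the columns are means per line and carry no replicate number.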
